A study of Mus musculus with 2 samples.

Results

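Prostaglandin genes were followed in the colon of mice on a psyllium diet, as 10 genes in 3 roles: 4 for synthesis (Ptgs1, Ptgs2, Ptges and Ptgis), 2 for uptake and breakdown (Hpgd and Slco2a1) and 4 for the prostaglandin E receptors (Ptger1 to Ptger4). A gene entered through probe sets whose platform annotation names that gene and no other. This gave 8 of the 10 genes, each with 1 probe set, among 22180 genes measured on the arrays. Ptgs1 and Ptger1 were not analysed here. The RNA was total RNA from the colons of healthy male ICR mice, an outbred stock, 7 weeks old. The control array carried RNA of mice fed a diet without psyllium. The psyllium array carried RNA of mice that had eaten psyllium, the gel-forming husk of a plantain seed, at 10% of the diet over 5 days. The labels give neither the number of mice behind each array nor the segment and layers of colon taken. Each diet has 1 array, so every difference below is between 2 arrays, has no replicate check and carries no error or p-value.

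Prostaglandins are short-lived lipid signals made from arachidonic acid, which phospholipases free from membranes. Cyclooxygenases, encoded by Ptgs1 and Ptgs2, turn it into an unstable intermediate, and terminal synthases make each prostaglandin from that. The signal acts on G protein-coupled receptors of nearby cells and ends when the carrier Slco2a1 takes the prostaglandin up and the dehydrogenase Hpgd oxidises it. In the colon prostaglandin E2 is known for its part in mucosal repair, fluid secretion and motility.

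Among the prostaglandin genes the inducible cyclooxygenase was higher on the psyllium array and the uptake carrier was lower. Ptgs2 was 2.25-fold higher and Slco2a1 1.77-fold lower, while the other 6 measured members differed by less than 1.5-fold. At a threshold of 1.5-fold 1 of the 8 measured members (Ptgs2) was higher and 1 (Slco2a1) lower; over all measured genes the shares past that threshold were 3.42% higher and 2.8% lower. At 2-fold Ptgs2 alone was past the threshold, where 0.676% of all measured genes were higher and 0.451% lower. The median log2 difference, psyllium minus control, was 0.43 for the 3 synthesis genes, -0.44 for the 2 uptake and breakdown genes and 0.15 for the 3 receptors. For uptake and breakdown it is the midpoint of Slco2a1 (-0.83) and Hpgd (-0.05) and describes neither gene. The median over all measured genes was -0.0025.

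**Figure D1:**
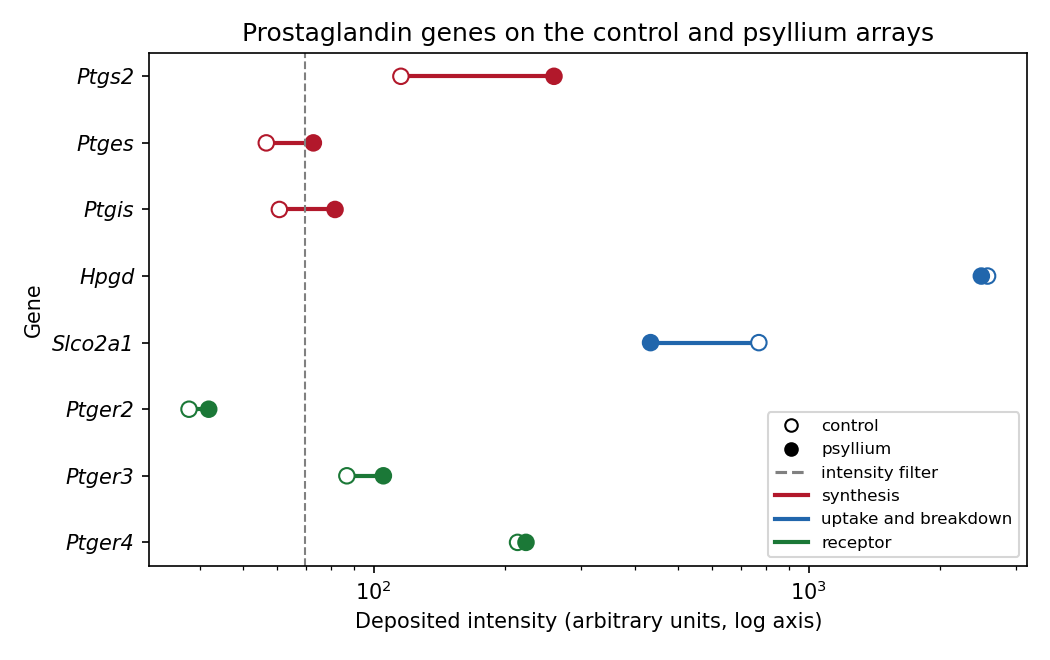
Deposited intensity (arbitrary units, log axis) of the 8 measured prostaglandin genes with the control diet (open circles) and with psyllium (filled circles); each point is 1 probe set on 1 array, colour gives the role and the dashed line is the intensity filter of 69.5. Ptgs2 moved from 116 to 260 and Slco2a1 from 768 to 433, and the other lines are short; positions of different genes cannot be compared, since probe sets differ in brightness.

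The promoters of 3 members are shown because these genes span the range of the differences: Ptgs2 and Slco2a1 lay past 1.5-fold in opposite directions, and Hpgd differed least of the 8. Each window holds 250 bases before and 50 after the gene start in the RefSeq table (GRCm38.p6), printed 5′ to 3′ along the gene's own strand, which is the plus strand for all 3. Capitals mark matches to 6 motifs searched on both strands: a TATA box (TATAAA), a cyclic AMP response element core (TGACGT), an AP-1 site (TGAGTCA), an E-box (CACGTG), a TEAD motif (GGAATG) and the CArG box of serum response factor.
Ptgs2, chr1:150099781-150100080: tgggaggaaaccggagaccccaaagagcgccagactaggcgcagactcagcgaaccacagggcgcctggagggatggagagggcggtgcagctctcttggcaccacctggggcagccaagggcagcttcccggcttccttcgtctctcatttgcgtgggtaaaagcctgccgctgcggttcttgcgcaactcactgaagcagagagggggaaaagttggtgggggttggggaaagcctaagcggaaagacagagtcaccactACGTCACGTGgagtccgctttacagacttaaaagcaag
Slco2a1, chr9:103008237-103008536: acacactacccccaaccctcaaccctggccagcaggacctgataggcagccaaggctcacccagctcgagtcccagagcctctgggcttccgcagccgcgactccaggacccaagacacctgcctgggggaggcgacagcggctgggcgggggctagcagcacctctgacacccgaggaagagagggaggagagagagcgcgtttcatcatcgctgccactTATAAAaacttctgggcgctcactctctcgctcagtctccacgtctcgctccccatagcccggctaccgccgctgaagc
Hpgd, chr8:56294302-56294601: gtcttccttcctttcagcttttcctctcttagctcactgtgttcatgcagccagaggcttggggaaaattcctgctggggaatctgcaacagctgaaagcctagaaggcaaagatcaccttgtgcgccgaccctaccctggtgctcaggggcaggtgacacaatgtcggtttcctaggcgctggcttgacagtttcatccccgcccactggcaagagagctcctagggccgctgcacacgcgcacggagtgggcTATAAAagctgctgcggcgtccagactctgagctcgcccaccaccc

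The Ptgs2 window held a cyclic AMP response element core on the minus strand (bases 13 to 18, counting the first base of the gene as 1) that overlaps an E-box (bases 17 to 22). The core occurs in 7.51% and the E-box in 7.15% of the 32851 windows in the table. The Slco2a1 window held a TATA box 29 to 24 bases before the start, and the Hpgd window one 5 to 10 bases after it; 13.6% of windows hold these letters. Among the 8 members with a window, which include Ptgs1 and lack Ptgis and Ptger1, the only other match was a TEAD motif in Ptges, a motif found in 14.7% of windows. No member window held an AP-1 site (5.2% of windows) or a CArG box (1.63%). Positions count from the RefSeq start, which was not checked against a measured start of transcription. A match describes letters in the window and was not tested for binding or for a part in the differences.

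Ptgs2, the inducible cyclooxygenase, had an intensity of 116 with the control diet and 260 with psyllium. Its log2 difference of 1.17 was the highest of the 8 measured members. Of the 11090 genes past the intensity filter, 87 (0.784%), Ptgs2 among them, differed upward by at least as much. The filter keeps a gene when its brighter array reaches 69.5, the median brighter value over all genes. Of the 8 measured members 7, all except Ptger2, passed it, and Ptgs2 was above it on both arrays. For the 1000 genes nearest to Ptgs2 in mean level, the central 95% of differences ran from -0.57 to 0.70, a spread across genes and not between animals.

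The terminal synthases Ptges and Ptgis were also brighter on the psyllium array, by less. Ptges, the microsomal prostaglandin E synthase, had intensities of 56.7 (control) and 72.7 (psyllium), a difference of 0.36. Ptgis, which makes prostacyclin, had 60.7 and 81.6, a difference of 0.43. Each crossed the filter on the psyllium array alone, and each difference lay inside the central 95% of the 1000 genes of nearest level (-0.52 to 0.62 for both). With both arrays floored at the filter they shrank to 0.065 for Ptges and 0.23 for Ptgis, so the size of these differences rests on a dim control value.

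Slco2a1, the carrier that brings prostaglandins into cells, had an intensity of 768 with the control diet and 433 with psyllium. The log2 difference of -0.83 was the lowest of the members, and 101 genes past the filter (0.911%), Slco2a1 included, differed downward by at least as much. The central 95% for the 1000 genes nearest in level ran from -0.61 to 0.64. Hpgd, which inactivates prostaglandins inside the cell, was almost level at 2578 and 2495, a difference of -0.05. Its sign turned, to 0.026, when an intensity trend was subtracted, so Hpgd had no settled direction.

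The 3 measured receptors were each slightly brighter on the psyllium array. Ptger4, which raises cyclic AMP, had intensities of 214 and 224 (control and psyllium), a difference of 0.06. Ptger3, which lowers cyclic AMP, had 86.8 and 105, a difference of 0.28. Ptger2, the other receptor that raises cyclic AMP, had 37.7 and 41.8, below the filter on both arrays, so its difference of 0.15 says little. All 3 lay inside the central 95% of genes of their level.

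**Figure D2:**
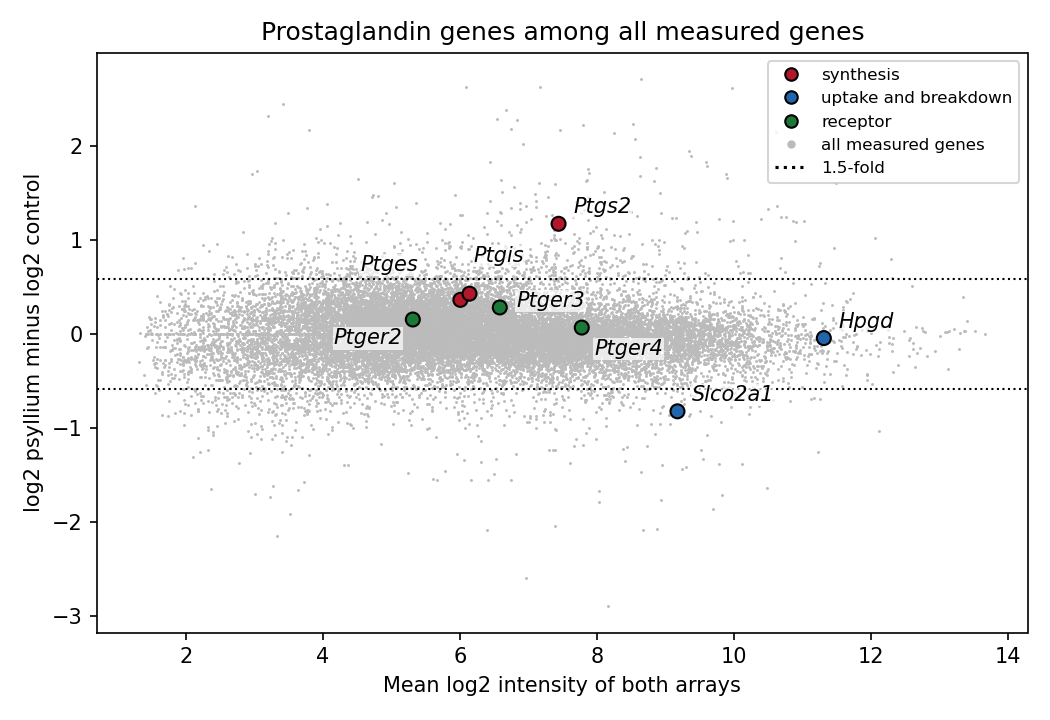
Difference (log2 psyllium minus log2 control) against mean log2 intensity for all 22180 measured genes (grey) and the 8 prostaglandin genes (coloured by role); dotted lines mark 1.5-fold. Ptgs2 at 1.17 and Slco2a1 at -0.83 lie outside the dotted lines, and the other 6 members lie within them.

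How far the log2 differences of members lie apart does not depend on scaling the arrays to each other by a constant factor. The log2 difference of Ptgs2 exceeded that of Slco2a1 by 2.00, a 3.99-fold unequal change. The difference of Ptgs2 exceeded that of Hpgd by 1.22 and those of the receptors Ptger2, Ptger3 and Ptger4 by 1.02, 0.89 and 1.10. It also exceeded those of the terminal synthases Ptges and Ptgis, by 0.81 and 0.74. The differences of Slco2a1 and Hpgd, which act in sequence on the same molecule, lay 0.78 apart (1.72-fold), that of Slco2a1 being the lower. Those of Ptges and Ptgis lay 0.07 apart.

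Genes listed for the release of arachidonic acid had differences on both sides of 0. Past 1.5-fold, 1 of 19 measured genes on this list was higher and 1 was lower, beside 3.42% and 2.8% of all measured genes. The median difference was 0.02. Membership in this list does not show that a gene's product releases arachidonic acid. The lower one, the secreted phospholipase family member Pla2g12b, had intensities of 143 and 84.0 (control and psyllium), a difference of -0.76. The higher one, Pla2g2f, lay below the filter on both arrays (28.4 and 46.0) and is named after its value was seen. Pla2g4a, the cytosolic phospholipase that releases arachidonic acid for cyclooxygenases, is the neighbour of Ptgs2 in the RefSeq gene order and is named for that after its value was seen. Pla2g4a had 375 and 494, a difference of 0.40.

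The other branches of the pathway gave at most 1 gene past 1.5-fold per list. Over all measured genes 3.42% were higher and 2.8% lower by that much, and in lists this short 1 gene is a larger share. Among 7 measured synthases outside the members 1 was lower by that much and none was higher (median -0.07): Cbr1, a carbonyl reductase that can act on prostaglandin E2, had 582 and 377, a difference of -0.63. Among 5 transport and reduction genes (median 0.22) 1 was higher and none lower. The higher one was Slco3a1, an organic anion carrier of the Slco2a1 family, with 61.4 and 98.4 and a difference of 0.68. The 2 carriers therefore differed in opposite directions, and Slco3a1 was below the filter on the control array. None of 4 measured receptors for other prostanoids passed 1.5-fold; the prostaglandin F receptor Ptgfr differed by 0.05 and the prostacyclin receptor Ptgir by 0.26. Of 16 leukotriene and lipoxygenase genes, the parallel route from arachidonic acid, 1 was lower and none was higher (median -0.10). It was Dpep1, a dipeptidase that converts leukotrienes and is a brush-border enzyme, with 1580 and 922 and a difference of -0.78. Of those 16 genes 12 were below the filter on both arrays.

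Genes that act below the receptors had a median near 0. Of 30 measured genes (G proteins, adenylyl cyclases, protein kinase A, phosphodiesterases, arrestins and the transcription factors Creb1 and Crem) 2 were higher by 1.5-fold or more and none was lower (median 0.09), beside 3.42% and 2.8% of all measured genes. The cyclase Adcy5, which makes cyclic AMP, had 88.8 and 149, a difference of 0.74. The phosphodiesterase Pde3b, which degrades it, had 131 and 206, a difference of 0.66.

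Genes known to induce Ptgs2 had a median slightly below 0. Of 16 measured genes (cytokines and their receptors, the Toll-like receptors Tlr2 and Tlr4, their adaptor Myd88, and transcription factors) none was higher and 2 were lower by 1.5-fold or more, beside 3.42% and 2.8% of all measured genes. The median was -0.07 over all 16, of which 5 had a difference above 0, and -0.20 over the 12 past the filter. Tlr2, a receptor for bacterial lipoproteins, had 213 and 127, a difference of -0.74, and Fos, a subunit of the AP-1 transcription factor, had 123 and 79.5, a difference of -0.63. The cytokines Il1b and Tnf, named after their values were seen, lay below the filter on both arrays and differed by 0.13 and -0.10. Of 8 proteins that bind AU-rich messages such as that of Ptgs2, 1 was lower by 1.5-fold or more and none was higher (median -0.01). It was Zfp36, which promotes decay of such messages, with 377 and 237 and a difference of -0.67.

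**Figure D3:**
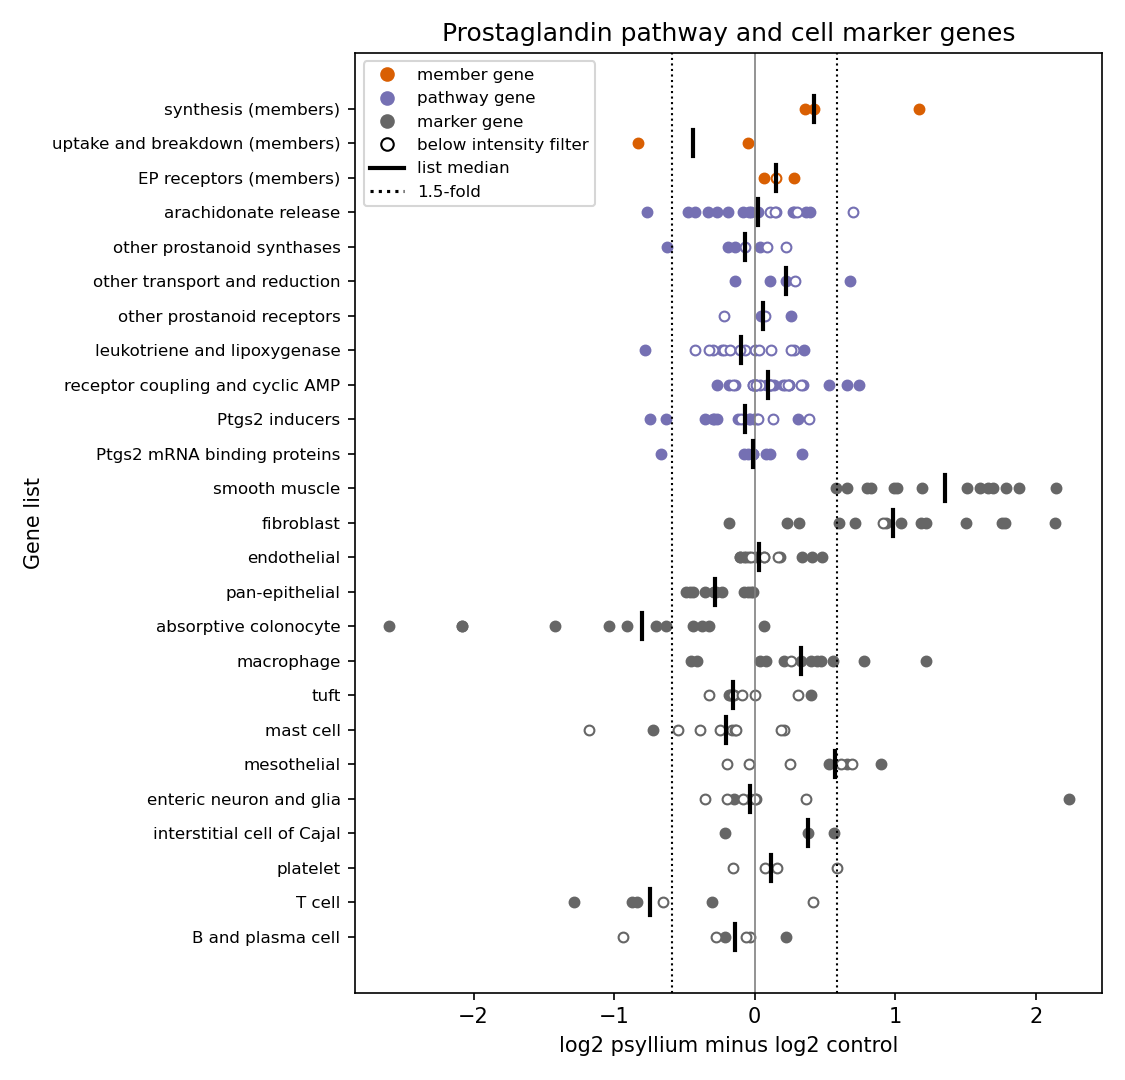
Difference (log2 psyllium minus log2 control) of each measured gene in the member lists (orange), the other pathway lists (purple) and the cell marker lists (grey); open circles lie below the intensity filter, black bars are list medians and dotted lines mark 1.5-fold. Pathway medians sit between -0.10 and 0.22, whereas the smooth muscle and fibroblast medians are 1.35 and 0.99 and the absorptive colonocyte median is -0.80.

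Marker genes of the muscle and connective tissue of the colon wall were higher on the psyllium array too. Beside the counts past 1.5-fold given here, 3.42% of all measured genes were higher and 2.8% lower. All 12 pan-epithelial markers were past the filter on these colon arrays, with intensities for Epcam of 3031 and 2883 (control and psyllium). Smooth muscle markers were at least 1.5-fold higher in 13 of 14 genes (median 1.35), and their summed intensity was 13790 with the control diet and 33041 with psyllium. Actg2, the enteric smooth muscle actin, led them with a difference of 2.14, followed by the intermediate filament gene Synm at 1.88. Fibroblast markers were higher by as much in 11 of 14 genes (median 0.99), with sums of 5559 and 12174; Lum and Col3a1, both of the extracellular matrix, differed by 2.14 and 1.78. The difference of Ptgs2, 1.17, lies within the range of both lists (0.58 to 2.14 and -0.19 to 2.14), and also within those of the macrophage list (-0.45 to 1.22) and the enteric neuron and glia list (-0.36 to 2.23). Only Mrc1 among the macrophage markers and only Vip among the neuron and glia markers exceeded Ptgs2. The medians of these lists were 0.33 and -0.03. In bulk RNA, a different number of cells of a type and a different amount of RNA per cell cannot be told apart, and the part of these cell types in the Ptgs2 difference was not tested.

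Other markers moved less or rested on dim probes. Over all measured genes 3.42% were higher and 2.8% lower by 1.5-fold or more, and in lists this short 1 gene is a larger share. Macrophage markers were higher by 1.5-fold in 2 of 13 genes (median 0.33, sums 2475 and 2735), led by the scavenger receptors Mrc1 at 1.22 and Cd163 at 0.78. Cd163 was below the filter on the control array (54.5 and 93.3). Mesothelial markers, of the outer lining of the gut, were higher in 4 of 8 genes (median 0.57, sums 346 and 493). Upk1b differed by 0.90 and Upk3b by 0.66. Of the 8 genes 5 were below the filter on both arrays. The rest, Upk1b and Upk3b among them, passed it on the psyllium array alone. Control intensities were 50.9 for Upk1b and 63.2 for Upk3b. Markers of interstitial cells of Cajal had a median of 0.38 over 3 genes (sums 958 and 1252), with Kit at 0.38, Ano1 at 0.56 and Etv1 at -0.21. Tuft cells had a median of -0.15 over 10 genes (sums 761 and 748), with Dclk1 at 0.40 and Rgs13 at -0.18. Of 10 mast cell markers 2 were lower (median -0.21, sums 290 and 211), and 9, all except Mcpt1 (-0.73), were below the filter on both arrays. Mcpt1 passed the filter on the control array alone (94.6 and 57.2). All 4 measured platelet markers were below it (median 0.12, sums 177 and 193). Their part in the member differences was not tested.

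Slco2a1 lay below the range of endothelial markers and within those of absorptive colonocyte, T cell (-1.28 to 0.41), mast cell (-1.18 to 0.21) and B and plasma cell (-0.93 to 0.23) markers. The mast cell range reached as low as Slco2a1 (-0.83) only through Mcpt2, and the B and plasma cell range only through Ms4a1. Both were below the filter on both arrays and are named after their values were seen. Of the markers past the filter, Mcpt1 (-0.73), Ighm and Jchain all lay above Slco2a1. None of 14 endothelial markers was past 1.5-fold in either direction; their median was 0.03, their range -0.11 to 0.48 and their sums 1764 and 1944. Of these Pecam1 differed by 0.34 and Cdh5 by 0.18. Absorptive colonocyte markers were at least 1.5-fold lower in 8 of 12 genes, with a median of -0.80, a range of -2.60 to 0.07 and sums of 32780 and 22743. The water channel Aqp8 differed by -2.60 and the sugar phosphate transporter Slc37a2 by -2.09. No pan-epithelial marker of 12 was past 1.5-fold (median -0.28, sums 19968 and 17398), and among them Krt8 differed by -0.03. Hpgd, at -0.05, lay at the upper end of both epithelial lists (pan-epithelial range -0.49 to -0.015). T cell markers were lower by 1.5-fold in 4 of 6 genes (median -0.74, sums 618 and 359), with Cd3e at -1.28 and Cd7 at -0.87. B and plasma cell markers were lower by as much in 1 of 6 genes (median -0.14, sums 2834 and 2698), with Ighm at -0.21 and Jchain at 0.23. The shares past 1.5-fold over all measured genes were 3.42% higher and 2.8% lower, and in lists this short 1 gene is a larger share. Enteric neuron and glia markers had a median of -0.03 over 9 genes, and their sums of 610 and 1223 followed Vip, a neuropeptide, at 2.23. The part of these cell types in the Slco2a1 difference was not tested.

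**Figure D4:**
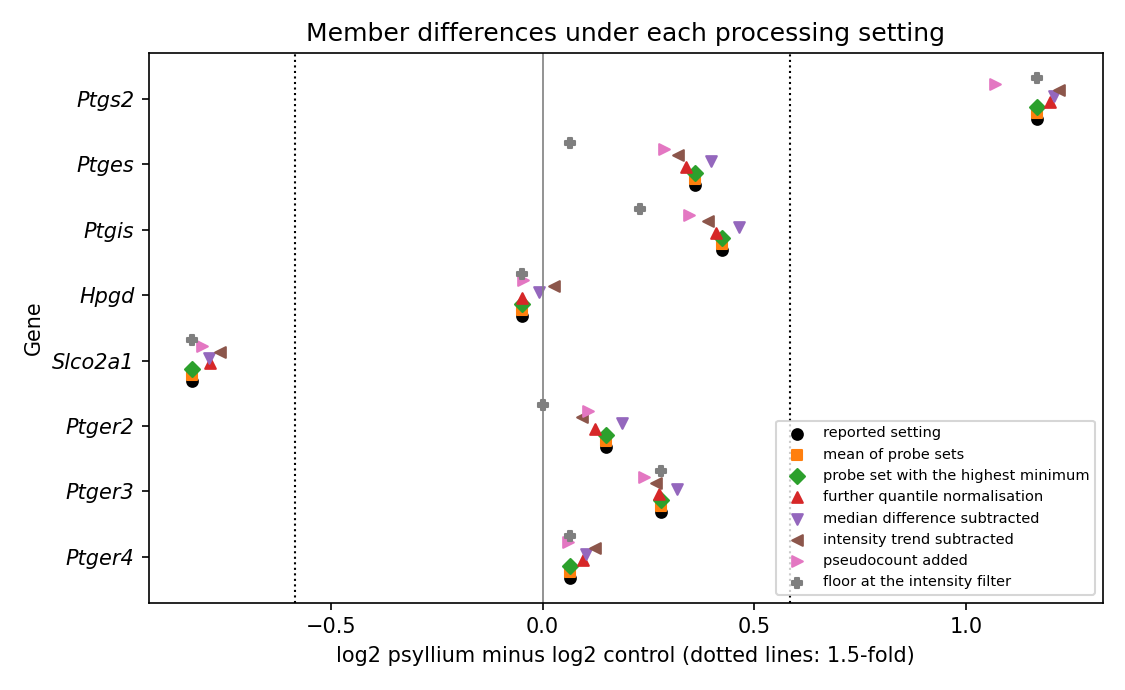
Difference (log2 psyllium minus log2 control) of each measured member under the reported setting (black circle) and 7 other processing settings (coloured symbols); dotted lines mark 1.5-fold. Ptgs2 stays between 1.07 and 1.22 and Slco2a1 between -0.83 and -0.76, while Ptges and Ptgis fall to 0.065 and 0.23 with a floor and Hpgd straddles 0.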

How the data were processed

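The deposited table holds 1 normalised intensity per probe set and array on a linear scale, judged from its values (control 1.92 to 13675, psyllium 1.76 to 13841). The authors used Affymetrix Expression Console and RMA, per the submitters' processing notes, which name no version. The sources used here do not give the steps, the annotation or the genome build, and the table holds no detection call. RMA usually equalises the arrays' distributions, and a change shared by most transcripts would then not be visible.

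Intensities were converted to log2 without a pseudocount (Python 3.11.15, pandas 2.3.3). Gene names came from the platform annotation in GEO. Of the 23521 probe sets that name 1 gene, 23328 had a gene number found in RefSeq (GRCm38.p6) and took its current symbol, whether or not that differed. The 1814 naming several genes and the 16010 naming none here were left out. A gene with several probe sets was represented by the one of highest mean. No test was possible with 1 array per diet, and the number of arrays limits the precision. The calculation was tested on simulated data. All members were named; each pathway list gave up to 4 names and each marker list up to 2, taken above the filter in order of the size of their difference if it reached 1.5-fold, or else the 2 brightest. The members, lists and motifs were chosen with earlier results of these data known.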

Additional observations from a re-analysis of the deposited data

How the results depend on the processing

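With no replicates, a difference was counted as moved when it shifted by at least 0.19 on the log2 scale, the median gap between 2 probe sets of the same gene (286 genes with both past the filter). Of 89 values under the alternatives 85 did not move, many of them because the alternative could not move them. With both arrays floored at the intensity filter, Ptges fell to 0.065, Ptgis to 0.23 and the synthesis median to 0.23, by construction, since their control values lie below the floor; Ptger2 became 0.00. At 2-fold in place of 1.5-fold, 1 member (Ptgs2) remained past the threshold in place of 2. Ptgs2 and Slco2a1 stayed past 1.5-fold under all 7 alternatives in probe set choice, scaling and handling of dim values, but several of these could not move them. As each member has 1 probe set, the alternatives in probe set choice repeat the reported value for members, role medians and counts, and add no check. The floor also repeats it for Ptgs2 and Slco2a1, which lie above the filter on both arrays. Subtracting the median difference of -0.038 shifts every member by the same amount, less than the 0.19 used here. No paired analysis was possible because each diet has 1 array. No array could be left out for the same reason, so the spread between animals is unknown.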
